A study of Rattus norvegicus with 8 samples.

Results

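The genes described here are those that burn fatty acids in liver mitochondria and peroxisomes and turn the product into ketone bodies, with 2 of their transcriptional regulators and the hormone Fgf21. The list held 36 genes, chosen by symbol, and each was represented by the probe set with a single symbol and the highest mean over the arrays. It measured 35 of them among 14506 genes in all. Acaa1a, a peroxisomal thiolase, was covered only by a probe set shared with Acaa1b and was left out. Liver RNA of female Wistar rats, an outbred strain, was hybridised to 8 Affymetrix Rat Gene ST 1.0 arrays, 2 for each of 4 groups. One group was the liver left 8 h after partial hepatectomy (PH), in which the lateral lobes were removed by surgery. The others were livers of unoperated rats at 2, 4 and 12 weeks of age. The sources used here do not give feeding state, time of day or how old the operated rats were. Sham-operated rats were not analysed here, so surgery, age and these conditions cannot be told apart. The sample titles speak of biological replicates and the design text of duplicates, so p-values measure the spread between these arrays, which may be technical.

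Fatty acids are activated to acyl-CoA, carried into mitochondria through the carnitine shuttle, and shortened step by step to acetyl-CoA, which liver mitochondria can convert to ketone bodies for export to brain and muscle. Peroxisomes shorten very long and branched chains and pass the products on. The nuclear receptor PPAR alpha drives many of these genes during fasting and in suckling animals, whose milk diet is rich in fat, and the rat changes to a starch-rich diet at weaning.

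Levels are given on the log2 scale of robust multi-array averaging (RMA), so a difference of 1 is a 2-fold change. Different genes cannot be ranked by their levels, because each probe set has its own brightness. The 14 measured hepatocyte markers averaged between 13.08 and 13.29 on every array. By limma 0 of them were called in the 6 comparisons between groups, and 2 had an unadjusted p under 0.05 in at least 1 (23.2% of all genes). Arrays of a group correlated with r between 0.952 (12 weeks) and 0.980 (PH) over genes, which are not independent replicates. The second 2-week array stood apart in muscle transcripts: the mean of 14 muscle markers was 7.03 there and between 5.16 and 5.58 on the other 7 arrays, and the actin gene Acta1 read 10.74 there against 6.89 on the first 2-week array. The mean of 11 neutrophil markers was 7.29 on the first 2-week array and 5.19 to 6.32 elsewhere, and that of 10 lymphocyte markers was 6.65 on the second 12-week array and 5.65 to 6.01 elsewhere. The part of these cells in the member differences was not tested, and calls are given with and without these arrays. As a gauge of background, the median of 1266 olfactory, vomeronasal and taste receptor genes, not known to act in liver, stood at 4.65 and 4.16 on the PH arrays, between 4.00 and 4.06 at 2 and 4 weeks, and 4.73 and 3.91 at 12 weeks. Fewer cells of a type and less RNA per cell cannot be told apart in these bulk tissue samples.

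Most members had their highest mean at 2 weeks. The 2-week group had the highest mean for 24 members (68.6%, against 26.9% of all genes). PH had it for 6 (17.1%, against 26.5%), 4 weeks for 2 (5.71%, against 23.0%) and 12 weeks for 3 (8.57%, against 23.6%). The lowest mean fell in PH for 12 members (34.3%, against 24.7% of all genes) and at 2 weeks for 2 (5.71%, against 30.0%). It fell at 4 weeks for 13 (37.1%, against 23.1%) and at 12 weeks for 8 (22.9%, against 22.2%). The 8 arrays of a member spanned at least 2 log2 units for 11 members (31.4%, against 6.6% of all genes) and under 1 for 13 (37.1%, against 59.6%). Those with the wide span included Abcd2, Ehhadh, Bdh1, Acat1 and Crot, the rest lay in between, and those with the narrow span included Slc27a2, Abcd3, Eci2, Acads and Acadm.

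**Figure D1:**
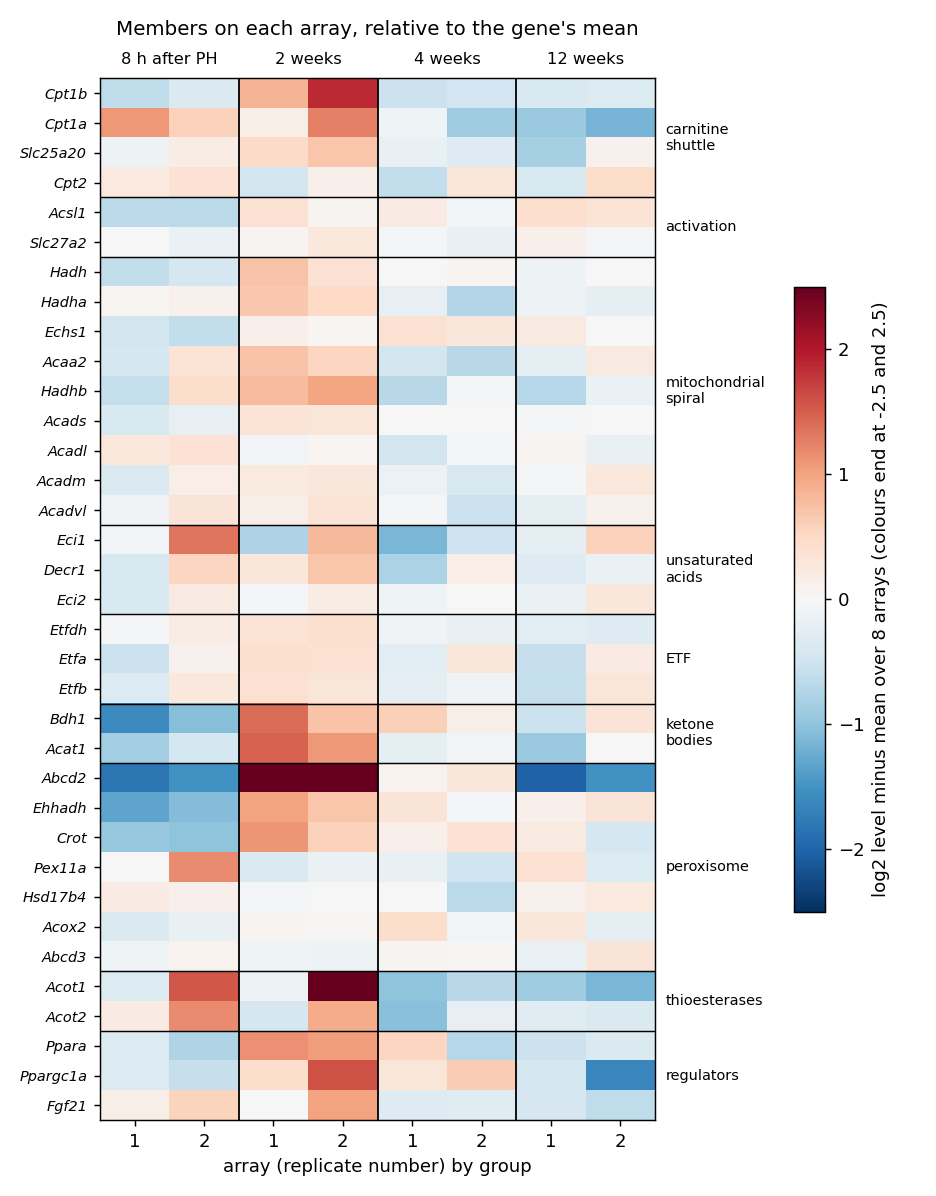
Heat map of the 35 members (rows, grouped by role) on the 8 arrays (columns, 2 per group), as the log2 level minus the gene's mean over the arrays, red above and blue below it. ETF stands for the electron transfer flavoprotein and its dehydrogenase. The 2-week columns are red for most rows, with Abcd2 past the end of the colours, and the PH columns are bluest for Abcd2, Ehhadh, Crot and Bdh1.

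A gene was called changed at a limma adjusted p (Benjamini-Hochberg over the 14506 genes) under 0.05. After PH against 2 weeks, 6 members fell and 0 rose (17.1% of members), where 2.16% of all genes were called, 1.36% lower and 0.793% higher. The median member difference was -0.51, with 27 of 35 below 0, and that of all genes was 0.03. Without the second 2-week array 4 of the 6 were called, namely Abcd2, Ehhadh, Bdh1 and Crot. Leaving out the first PH array left only Abcd2, and leaving out the second left Abcd2 and Ehhadh. Without the first 2-week array the calls were Abcd2 and Cpt1b.

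At 12 against 2 weeks, 3 members fell, Abcd2, Acat1 and Cpt1b, and 0 rose, with 2.23% of all genes called, 1.29% lower and 0.938% higher. The median member difference was -0.60, with 28 of 35 below 0, against 0.01 for all genes. Without the second 2-week array only Abcd2 was called, and without the first the calls were Abcd2 and Cpt1b. Leaving out the first 12-week array gave Abcd2 and Ppargc1a, and leaving out the second gave Abcd2, Acat1 and Slc25a20. At 4 against 2 weeks the median was -0.54, with 31 of 35 below 0, against 0.00 for all genes. In that comparison Abcd2 alone was called, lower, where 0.448% of all genes were called, 0.152% lower and 0.296% higher, and Cpt1b was added when the first 2-week array was left out. These comparisons share the 2-week arrays, so their values are not independent of each other.

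PH and the older ages stood closer together. The 12-week arrays lay at least 1 log2 unit apart for 12.7% of all genes, against 2.98% to 4.27% in the other groups. Among members this held at 12 weeks for Ppargc1a alone, for 4 in PH, 7 at 2 weeks and 1 at 4 weeks. With 2 arrays per group, few calls do not show equal levels. After PH against 12 weeks 0 members were called by limma, as were 0.0345% of all genes (5 genes; 0.0207% higher and 0.0138% lower), and 7 members had an unadjusted p under 0.05 (20.0% of members, 6.0% of all genes). The median member difference was -0.01, with 17 above and 18 below 0, and it was 0.28 without the first PH array and -0.17 without the second. After PH against 4 weeks 1 member, Abcd2, fell, with 0.303% of all genes called, 0.186% lower and 0.117% higher, and leaving out any of the 4 arrays ended that call. The median was 0.12, with 20 of 35 above 0, and it was -0.12 without the second PH array and -0.01 without the first 4-week array. At 12 against 4 weeks 0 members were called by limma, as were 0.11% of all genes (0.0276% higher and 0.0827% lower), and 2 members had an unadjusted p under 0.05 (4.47% of all genes). The median was 0.01. Across all 4 groups at once the moderated F test called 3 members, Abcd2, Ehhadh and Cpt1b, with 1.79% of all genes called, and between 1 and 5 members with any 1 array left out, Abcd2 each time among them.

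A rule without a p, chosen after seeing the data, counted members whose arrays did not overlap between 2 groups and whose means lay at least 1 log2 unit apart. After PH against 2 weeks it held for 0 higher and 9 lower members, with 2.38% of all genes higher and 3.78% lower. At 12 against 2 weeks it held for 0 higher and 10 lower members (2.33% and 3.25% of all genes), and at 4 against 2 weeks for 0 higher and 9 lower (1.81% and 1.38%). After PH the split between higher and lower was even. Against 12 weeks 3 members were higher and 3 lower (8.57% of members each, beside 1.1% and 1.28% of all genes). Against 4 weeks 4 were higher and 4 lower (11.4% each, beside 2.05% and 2.57%). At 12 against 4 weeks 1 member was higher and 2 were lower (0.607% and 1.32%).

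**Figure D2:**
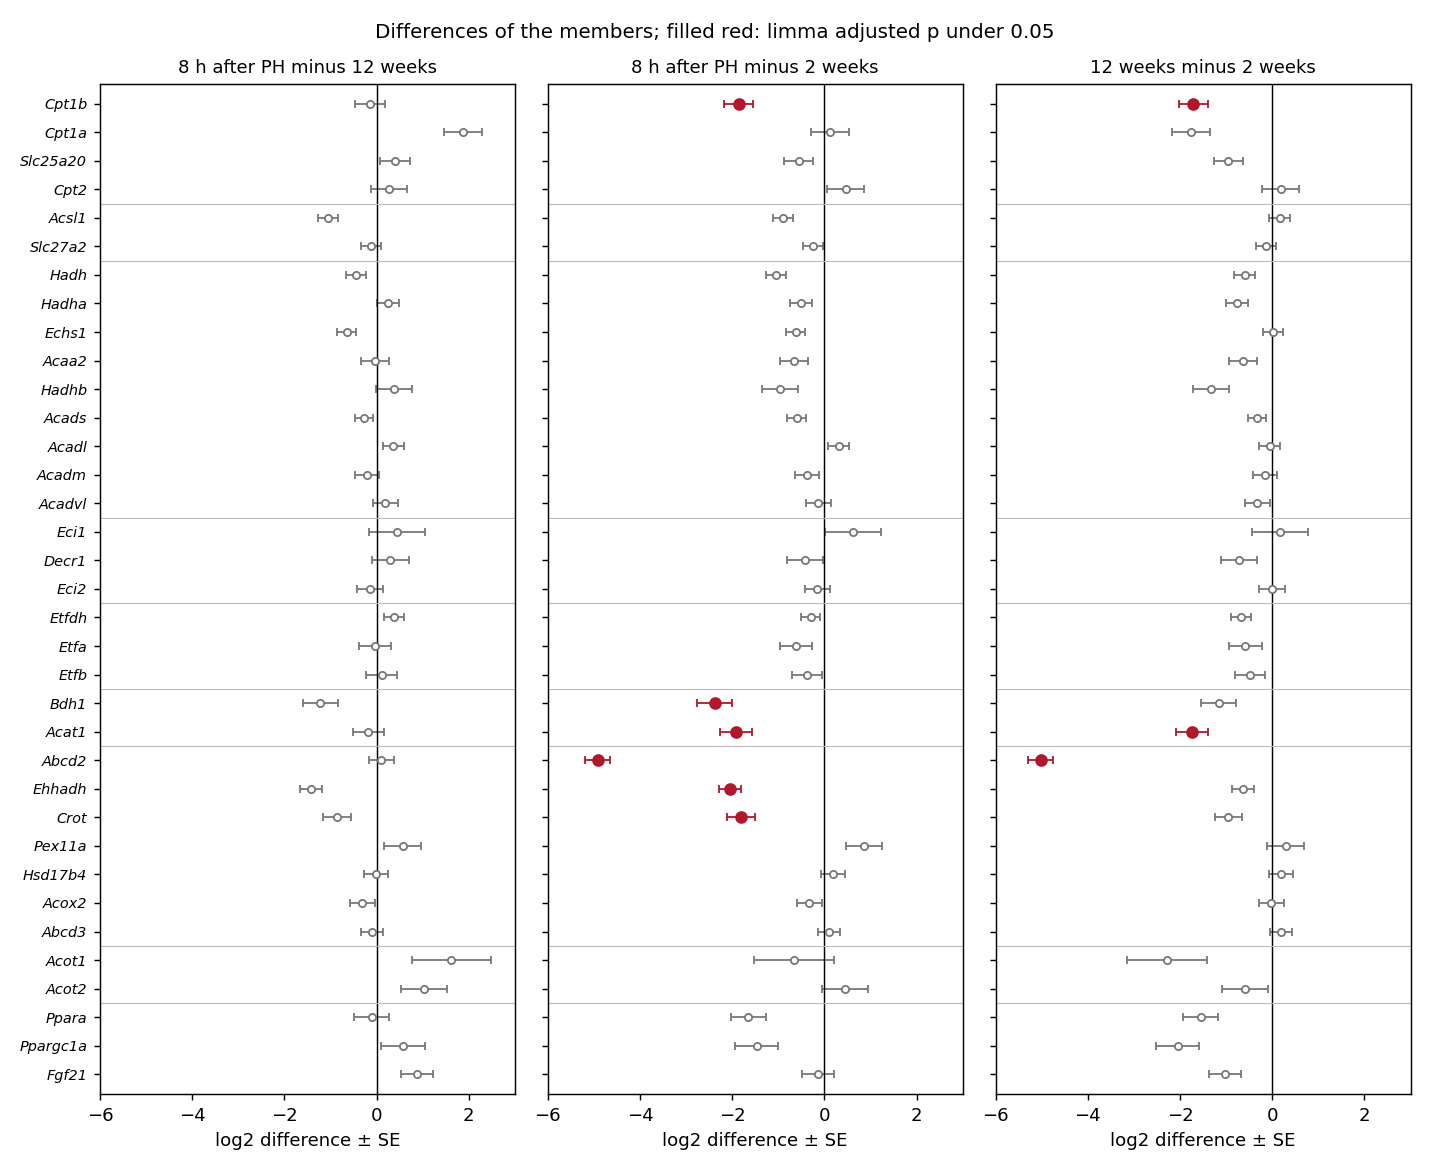
Log2 difference of each of the 35 members with its standard error (bars), 8 h after PH minus 12 weeks, 8 h after PH minus 2 weeks, and 12 weeks minus 2 weeks. Filled red points passed an adjusted p of 0.05: 0 members in the first panel, 6 in the second and 3 in the third, all to the left of 0.

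In the carnitine shuttle the liver and muscle forms of the entry enzyme differed in pattern. Cpt1a, the liver form of carnitine palmitoyltransferase and the gate of mitochondrial oxidation, read 12.21 and 11.70 on the PH arrays, 11.27 and 12.39 at 2 weeks, 11.02 and 10.23 at 4 weeks, and 10.19 and 9.96 at 12 weeks. Both PH arrays lay above all 4-week and 12-week arrays and within the range of the 2-week arrays. The differences did not pass the test: 1.88 ± 0.41 for PH minus 12 weeks (log2, SE; adjusted p = 0.2781), 1.33 ± 0.41 for PH minus 4 weeks (adjusted p = 0.3051) and -1.76 ± 0.41 for 12 minus 2 weeks (adjusted p = 0.08759; -1.20 without the second 2-week array).

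Cpt1b, the form used mainly in muscle, read 5.31 and 5.59 on the PH arrays, 6.80 and 7.81 at 2 weeks, 5.40 and 5.46 at 4 weeks, and 5.57 and 5.61 at 12 weeks. Only the 2-week arrays stood above the rest, whose values lay near the 95th percentile of the receptor genes (5.23 to 6.36 over the arrays). It fell by 1.86 ± 0.32 after PH against 2 weeks (adjusted p = 0.02719) and fell by 1.71 ± 0.32 at 12 against 2 weeks (adjusted p = 0.03627). The first 2-week array held Cpt1b at 6.80 with the muscle markers at 5.28, and the second held it at 7.81 with the muscle markers at 7.03. Without that second array the differences were -1.35 (adjusted p = 0.07503) and -1.21 (adjusted p = 0.1076), and neither was called. The first call also ended without either PH array, and the second without either 12-week array. Slc25a20, the translocase that swaps acylcarnitine for carnitine, and Cpt2, which remakes acyl-CoA inside the mitochondrion, ranged from 9.51 to 11.03 and from 9.08 to 10.16.

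Of the genes that activate fatty acids, Acsl1, the main long-chain acyl-CoA synthetase of liver, read 12.07 and 12.05 on the PH arrays, 13.11 and 12.80 at 2 weeks, 12.93 and 12.66 at 4 weeks, and 13.15 and 13.07 at 12 weeks. Both PH arrays lay below all 6 others, by 1.06 ± 0.22 on average against 12 weeks, which did not pass (difference -1.06, adjusted p = 0.2624). Slc27a2, a transporter and very long-chain acyl-CoA synthetase, stayed between 12.76 and 13.21.

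The 9 genes of the mitochondrial spiral, whose enzymes repeat the 4 steps of each shortening round, had 0 members called by limma in the 6 comparisons, and 7 of the 9 had an unadjusted p under 0.05 in at least 1, as did 23.2% of all genes. Hadh, the short-chain hydroxyacyl-CoA dehydrogenase, read 11.57 and 11.76 on the PH arrays, 12.89 and 12.55 at 2 weeks, 12.19 and 12.26 at 4 weeks, and 12.06 and 12.18 at 12 weeks. PH was lowest and 2 weeks highest with no overlap, and the difference between them was -1.05 ± 0.22 (adjusted p = 0.0567). Echs1, the short-chain enoyl-CoA hydratase, read 10.04 and 9.89 on the PH arrays, 10.63 and 10.55 at 2 weeks, 10.87 and 10.77 at 4 weeks, and 10.72 and 10.50 at 12 weeks. Its PH arrays also lay below all others, by less than 1 log2 unit.

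Hadha and Hadhb encode the 2 subunits of the mitochondrial trifunctional protein and share a promoter region. Their start sites lie 301 bases apart on opposite strands in the RefSeq gene table (GRCr8), and the 200 bases between them that both promoter windows contain (chr6:31907551-31907750, plus strand) are printed because these genes were compared as a pair.
Hadha and Hadhb: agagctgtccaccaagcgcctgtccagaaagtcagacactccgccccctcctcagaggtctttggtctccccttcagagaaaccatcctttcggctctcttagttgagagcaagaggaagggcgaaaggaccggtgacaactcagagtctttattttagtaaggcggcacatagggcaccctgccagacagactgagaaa
Hadha read 11.77 and 11.83 on the PH arrays, 12.40 and 12.22 at 2 weeks, 11.52 and 10.99 at 4 weeks, and 11.61 and 11.49 at 12 weeks. Hadhb read 9.90 and 10.94 on the PH arrays, 11.28 and 11.48 at 2 weeks, 9.80 and 10.44 at 4 weeks, and 9.78 and 10.32 at 12 weeks. Both genes had their 2-week arrays above all others. At 4 minus 2 weeks the differences were -1.06 ± 0.24 for Hadha (adjusted p = 0.1782) and -1.26 ± 0.39 for Hadhb (adjusted p = 0.4093), and neither passed. The PH arrays agreed for Hadha and stood over 1 unit apart for Hadhb.

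Acaa2, the thiolase that ends each round, read 11.56 and 12.34 on the PH arrays, 12.70 and 12.54 at 2 weeks, 11.54 and 11.30 at 4 weeks, and 11.77 and 12.21 at 12 weeks. It too was highest at 2 weeks, with a difference of -1.20 ± 0.30 at 4 minus 2 weeks (adjusted p = 0.2452). The acyl-CoA dehydrogenases, which take the first step for different chain lengths, varied little: Acadl ranged from 10.95 to 11.76, Acadm from 11.06 to 11.74, Acadvl from 10.45 to 11.32 and Acads from 8.73 to 9.44.

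Among the auxiliary enzymes that unsaturated fatty acids need, Eci1, a mitochondrial enoyl-CoA isomerase, read 9.62 and 11.02 on the PH arrays, 8.92 and 10.49 at 2 weeks, 8.54 and 9.17 at 4 weeks, and 9.47 and 10.27 at 12 weeks. The second array of each group was the higher one and the groups overlapped, except that PH and 12 weeks lay above 4 weeks, by 1.46 ± 0.61 (adjusted p = 0.4639) and 1.01 ± 0.61 (adjusted p = 0.9994), which did not pass. Decr1, a dienoyl-CoA reductase, ranged from 9.76 to 11.24 and Eci2, a second isomerase, from 10.29 to 10.95. Over all members the second PH array was above the first for 27 of 35, against 47.0% of all genes, with a median gap of 0.28. The electron transfer flavoprotein hands electrons from the dehydrogenases to the respiratory chain, and each of its 3 genes spanned under 1 log2 unit. Its dehydrogenase gene Etfdh read 11.13 and 11.35 on the PH arrays, 11.51 and 11.58 at 2 weeks, 11.09 and 10.98 at 4 weeks, and 10.88 and 10.84 at 12 weeks. Etfa ranged from 10.32 to 11.30 and Etfb from 9.86 to 10.83. All 3 genes were lower at 12 than at 2 weeks, with a median difference of -0.58 (-0.60 over all members), and none of the 3 was called.

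Both ketone body enzymes were lower after PH than at 2 weeks. Bdh1, which interconverts acetoacetate and hydroxybutyrate, read 8.85 and 9.39 on the PH arrays, 11.85 and 11.15 at 2 weeks, 11.05 and 10.60 at 4 weeks, and 9.91 and 10.77 at 12 weeks. The PH arrays were below every other array. Bdh1 fell by 2.38 ± 0.38 against 2 weeks, or 5.21-fold (adjusted p = 0.01926), and the differences of -1.70 ± 0.38 against 4 weeks (adjusted p = 0.1423) and -1.22 ± 0.38 against 12 weeks (adjusted p = 0.5439) did not pass. The call against 2 weeks was kept without the second 2-week array (adjusted p = 0.03685) and ended without any other array of the pair.

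Acat1, the mitochondrial acetoacetyl-CoA thiolase, read 9.64 and 10.08 on the PH arrays, 11.98 and 11.59 at 2 weeks, 10.26 and 10.44 at 4 weeks, and 9.58 and 10.51 at 12 weeks. Its 2-week arrays lay above all others, and the PH arrays lay within the range of the 12-week ones. Acat1 fell by 1.92 ± 0.34 after PH against 2 weeks (3.80-fold, adjusted p = 0.02821) and fell by 1.74 ± 0.34 at 12 against 2 weeks (3.34-fold, adjusted p = 0.04104). Both calls ended when either 2-week array was left out, that after PH also when either PH array was, and that at 12 weeks also without the first 12-week array (-1.27, adjusted p = 0.1081). Without the second 2-week array the differences were -2.12 (adjusted p = 0.07275) and -1.94 (adjusted p = 0.09784).

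**Figure D3:**
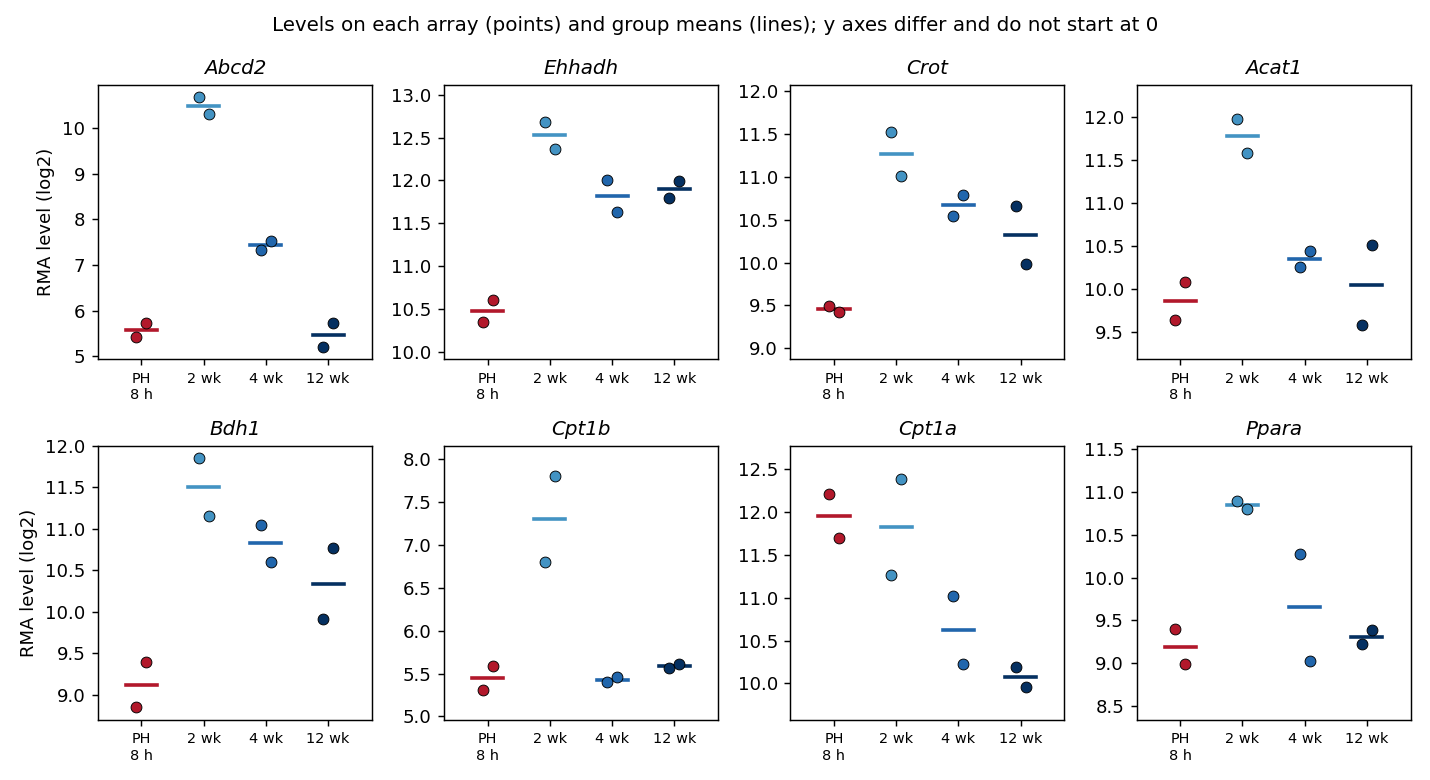
RMA level (log2) of 8 members on each array (points) with group means (lines), by group: 8 h after PH, 2, 4 and 12 weeks. The vertical axes differ and do not start at 0. Abcd2 read 10.67 and 10.31 at 2 weeks and below 6 both after PH and at 12 weeks, Ehhadh, Crot and Bdh1 were lowest after PH, and Cpt1a was lowest at 12 weeks.

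Of the 7 peroxisomal members, 3 were called, and the 250 bases before their RefSeq start sites (GRCr8) are shown, 5′ to 3′ on the strand of the gene. Capitals mark an exact AGGTCA element, the core recognised by nuclear receptors such as PPAR alpha, or its reverse complement TGACCT. The last 2 windows hold none, and bases further upstream were not searched. The windows are chr7:124191203-124191452, minus strand, for Abcd2, chr11:92746159-92746408, plus strand, for Ehhadh, and chr4:26052874-26053123, plus strand, for Crot.
Abcd2: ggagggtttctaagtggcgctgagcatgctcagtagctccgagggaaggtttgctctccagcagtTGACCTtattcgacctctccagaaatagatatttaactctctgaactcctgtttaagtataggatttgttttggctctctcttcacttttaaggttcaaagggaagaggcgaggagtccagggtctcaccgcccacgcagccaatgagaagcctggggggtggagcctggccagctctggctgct
Ehhadh: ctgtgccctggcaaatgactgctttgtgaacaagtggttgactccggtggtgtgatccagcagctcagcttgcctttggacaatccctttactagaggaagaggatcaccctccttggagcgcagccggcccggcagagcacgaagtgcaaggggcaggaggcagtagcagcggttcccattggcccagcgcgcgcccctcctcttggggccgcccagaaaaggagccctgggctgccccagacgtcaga
Crot: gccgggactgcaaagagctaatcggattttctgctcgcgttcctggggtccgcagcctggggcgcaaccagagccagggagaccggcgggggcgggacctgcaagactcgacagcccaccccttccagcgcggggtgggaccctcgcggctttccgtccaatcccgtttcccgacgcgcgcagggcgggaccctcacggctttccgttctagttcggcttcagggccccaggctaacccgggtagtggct

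Abcd2, a peroxisomal membrane transporter of very long-chain acyl-CoA, read 5.41 and 5.73 on the PH arrays, 10.67 and 10.31 at 2 weeks, 7.33 and 7.53 at 4 weeks, and 5.21 and 5.73 at 12 weeks. The ages formed 3 separate steps downward, and PH overlapped 12 weeks. It fell after PH against 2 weeks (-4.92 ± 0.27, adjusted p = 0.000149), at 12 against 2 weeks (-5.02 ± 0.27, adjusted p = 0.0001103) and at 4 against 2 weeks (-3.06 ± 0.27, or 8.36-fold, adjusted p = 0.003259). These 3 calls stood in all 15 alternatives tried for each, and without the second 2-week array the differences were -5.10, -5.20 and -3.24. It also fell after PH against 4 weeks (-1.86 ± 0.27, adjusted p = 0.03742), a call kept in 8 of 15 alternatives. The 12-week difference from 4 weeks, -1.96 ± 0.27, did not pass (adjusted p = 0.05423). The levels after PH and at 12 weeks were near the 95th percentile of the receptor genes (5.92 and 5.47 on the PH arrays, 6.36 and 5.23 at 12 weeks), where RMA compresses differences, so no exact fold is given against them.

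Ehhadh, the peroxisomal bifunctional enzyme that is a classical PPAR alpha target in rodents, read 10.35 and 10.60 on the PH arrays, 12.68 and 12.37 at 2 weeks, 12.00 and 11.63 at 4 weeks, and 11.80 and 11.99 at 12 weeks. The PH arrays were more than 1 log2 unit below every other array. It fell by 2.05 ± 0.24 against 2 weeks (4.14-fold, adjusted p = 0.005399; -2.20 without the second 2-week array, adjusted p = 0.02108), a call that ended without the first PH array (adjusted p = 0.06676) or the first 2-week array (adjusted p = 0.05747). The differences of -1.34 ± 0.24 against 4 weeks (adjusted p = 0.08852) and -1.42 ± 0.24 against 12 weeks (adjusted p = 0.1494) did not pass.

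Crot, which turns shortened chains into carnitine esters for export from the peroxisome, read 9.49 and 9.42 on the PH arrays, 11.53 and 11.01 at 2 weeks, 10.55 and 10.79 at 4 weeks, and 10.66 and 9.98 at 12 weeks. Its PH arrays, too, were below all others. It fell by 1.81 ± 0.30 against 2 weeks (3.52-fold, adjusted p = 0.02136; -2.08 without the second 2-week array, adjusted p = 0.04146), and the difference of -1.21 ± 0.30 against 4 weeks did not pass (adjusted p = 0.1829). As for Bdh1, the call ended without any of the other 3 arrays of the pair. The other 4 peroxisomal members were not called. Hsd17b4, the other bifunctional enzyme, ranged from 10.99 to 11.90, Acox2, an oxidase of branched chains and bile acid precursors, from 11.24 to 12.03, and Abcd3, an abundant peroxisomal transporter, from 10.90 to 11.39. Pex11a, which promotes peroxisome division, had its highest value on the second PH array (9.16) and ranged from 7.48 to 8.37 on the other 7.

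The acyl-CoA thioesterases, which release free fatty acid and CoA, differed widely between the arrays of the PH and 2-week groups. Acot1, the cytosolic form, read 3.92 and 5.81 on the PH arrays, 4.14 and 6.92 at 2 weeks, 3.25 and 3.57 at 4 weeks, and 3.37 and 3.12 at 12 weeks. Both PH arrays and both 2-week arrays lay above all 4-week and 12-week arrays, which, like the first PH array, were under the receptor-gene median of their array, and the differences of 1.62 ± 0.86 for PH minus 12 weeks (adjusted p = 0.9578) and -2.28 ± 0.86 for 12 minus 2 weeks (adjusted p = 0.3411) did not pass. Acot2, the mitochondrial form, is its near-identical neighbour on chromosome 6, so signal could be shared, and its values ranged from 9.09 to 11.31.

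Both transcriptional regulators had their highest mean at 2 weeks, and neither passed the test. Ppara, the gene of PPAR alpha, read 9.40 and 8.99 on the PH arrays, 10.89 and 10.80 at 2 weeks, 10.28 and 9.03 at 4 weeks, and 9.22 and 9.39 at 12 weeks. Its 2-week arrays were above all others, with differences of -1.65 ± 0.38 for PH minus 2 weeks (adjusted p = 0.08102) and -1.55 ± 0.38 for 12 minus 2 weeks (adjusted p = 0.1024). Ppargc1a, a coactivator of mitochondrial genes, read 7.04 and 6.80 on the PH arrays, 7.82 and 8.97 at 2 weeks, 7.68 and 8.02 at 4 weeks, and 6.94 and 5.75 at 12 weeks. The PH and 12-week arrays lay below those at 2 and 4 weeks, and the difference for 12 minus 2 weeks was -2.05 ± 0.47 (adjusted p = 0.07579; -1.47 without the second 2-week array). Fgf21, a liver hormone of fasting, ranged from 7.22 to 8.85. Its PH and 2-week arrays lay above all 4-week and 12-week arrays, and it was not called.

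Promoter windows from 250 bases before to 50 after the start site were found for 32 of the 36 listed genes in the RefSeq table (GRCr8). An exact AGGTCA on either strand was present in 8 (25.0%, against 16.2% of 33469 promoters), one of them Abcd2. The element PPAR alpha binds with its partner RXR is a pair of AGGTCA copies with 1 free base between them (DR1), and 0 of the 32 held an exact copy on either strand (0.0538% of all promoters). Allowing up to 2 of the 12 letters to differ, a limit chosen after seeing the data, 5 of 32 held one (15.6%, against 3.77%), namely Echs1, Slc27a2, Etfa, Slc25a20 and Acadvl. None of these 5 is among the 6 members called, but Cpt1b, 1 of the 6, had no window to search. So few windows cannot show whether called members hold such copies more or less often than others. The median GC content was 58.0% for the member windows (40.0% to 76.0%) and 51.2% for all promoters, a difference for which the shares above were not adjusted. The 4 matches that lie before the start site are printed on the strand of the gene, with the 13 matching bases in capitals, to show how far they stray from the element; they are at chr1:204333641-204333669, minus strand (Echs1), chr3:134258017-134258045, plus strand (Slc27a2), chr8:64788099-64788127, minus strand (Etfa), and chr10:55236706-55236730, minus strand (Acadvl).
Echs1: ccgctaaaAGACCTCTGATCTgatcttcc
Slc27a2: tgaagaaaTGACCTTTGAGATatgccatc
Etfa: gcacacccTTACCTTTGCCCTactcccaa
Acadvl: gggagaagAGGTCAGTGGTCAaggc

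Other genes of the same pathways were counted from lists chosen with earlier results of these data known. Of 24 other genes of mitochondrial oxidation and ketogenesis, 2 fell after PH against 2 weeks (1.36% of all genes), and 1 rose and 1 fell at 12 against 2 weeks (0.938% and 1.29% of all genes). Acsm3, a medium-chain acyl-CoA synthetase, read 5.50 and 6.55 on the PH arrays, 9.62 and 9.71 at 2 weeks, 8.36 and 8.34 at 4 weeks, and 5.33 and 5.39 at 12 weeks, and fell by 4.31 ± 0.33 at 12 against 2 weeks (adjusted p = 0.0005529). Its steps down with age and low level after PH resembled those of Abcd2, and its 12-week levels too lay near the 95th percentile of the receptor genes. Bdh2, a cytosolic relative of the ketone body dehydrogenase, ran the other way, higher by 2.17 ± 0.34 at 12 against 2 weeks (adjusted p = 0.01788).

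Of 28 other peroxisomal enzymes, 1 fell after PH against 2 weeks and 2 fell at 12 against 2 weeks, beside 1.36% and 1.29% of all genes. Ephx2, the soluble epoxide hydrolase, read 6.16 and 6.76 on the PH arrays, 10.34 and 9.85 at 2 weeks, 9.11 and 9.23 at 4 weeks, and 6.67 and 8.15 at 12 weeks, and fell by 3.64 ± 0.46 after PH against 2 weeks (adjusted p = 0.007166). Ech1, a dienoyl-CoA isomerase, fell by 1.89 ± 0.34 at 12 against 2 weeks (adjusted p = 0.03033). Hao2, a hydroxy acid oxidase, was highest at 4 weeks (8.79 and 8.94) and fell by 3.60 ± 0.44 at 12 against 4 weeks (adjusted p = 0.02777). Of 12 peroxisome biogenesis genes, 0 were called by limma in the 6 comparisons, and 2 had an unadjusted p under 0.05 in at least 1, against 23.2% of all genes.

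Of 25 other targets of PPAR alpha, 1 rose and 4 fell after PH against 2 weeks (0.793% and 1.36% of all genes), and 1 rose and 3 fell at 12 against 2 weeks (0.938% and 1.29%). Over the 6 comparisons and the F test, 5 of the 25 were called. Fabp4, 1 of the 4 that fell after PH, is also counted among the adipocyte markers below. Vnn1, a pantetheinase, fell by 3.98 ± 0.41 at 12 against 2 weeks (adjusted p = 0.003313), Aqp7, a glycerol channel, fell by 3.82 ± 0.41 after PH against 2 weeks (adjusted p = 0.003296), and Cyp4a8, a fatty acid hydroxylase, fell by 2.15 ± 0.30 in that comparison (adjusted p = 0.01068). On the PH arrays Aqp7 (4.74 and 5.18) and Cyp4a8 (5.44 and 5.42) lay below the 95th percentile of the receptor genes (5.92 and 5.47). Their falls may therefore be compressed. Cd36, a fatty acid uptake receptor, rose by 1.99 ± 0.35 after PH against 2 weeks (adjusted p = 0.02719). Of 16 regulators around PPAR alpha and PGC1, Nr1d1, a clock repressor that varies with time of day, was the one called: it read 9.98 and 9.04 on the PH arrays, 7.26 and 6.92 at 2 weeks, 10.33 and 10.09 at 4 weeks, and 6.99 and 7.56 at 12 weeks. The sampling hour is not given, and its part in the member differences was not tested.

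Markers of some other cells differed between the same groups. The mean of 9 erythroid markers was 6.07 and 6.08 on the PH arrays and 8.86 and 7.94 at 2 weeks. It was 7.33 and 7.66 at 4 weeks and 6.39 and 6.63 at 12 weeks. Of the 9, 5 fell after PH against 2 weeks (1.36% of all genes) and 3 at 12 against 2 weeks (1.29%). The mean of 12 stellate and fibroblast markers was 7.39 and 7.45 on the PH arrays and 8.61 and 8.33 at 2 weeks. It was 8.82 and 7.77 at 4 weeks and 7.35 and 7.31 at 12 weeks. Of the 12, 1 fell after PH against 2 weeks (1.36% of all genes) and 3 at 12 against 2 weeks (1.29%). The mean of 8 adipocyte markers was 6.13 and 6.33 on the PH arrays, up to 7.05 at 2 weeks, 6.72 and 6.46 at 4 weeks, and 6.08 and 6.13 at 12 weeks, and 2 of the 8, Lpl and Fabp4, fell after PH against 2 weeks. The median difference of that list was 0.03, with 4 genes above and 4 below 0, and its defining marker Adipoq lay between 4.66 and 5.15 on all arrays. The part of these cells in the member differences was not tested. The mean of all 35 members was 9.89 and 10.26 on the PH arrays, 10.65 and 10.90 at 2 weeks, 10.06 on both arrays at 4 weeks, and 9.93 and 10.08 at 12 weeks.

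**Figure D4:**
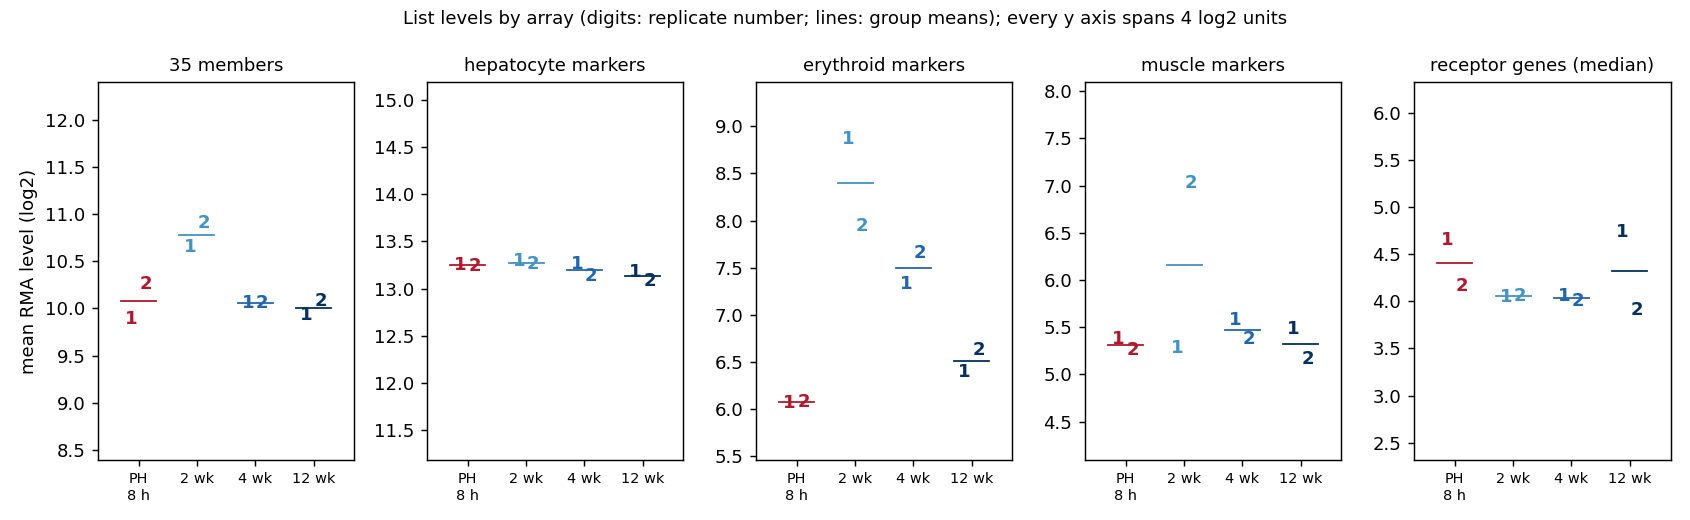
Mean RMA level (log2) of the 35 members, of 14 hepatocyte, 9 erythroid and 14 muscle markers, and the median of 1266 receptor genes, on each array (digits give the replicate number, lines the group mean). Every vertical axis spans the same number of log2 units; members and erythroid markers were both highest at 2 weeks, hepatocyte markers were level, and muscle markers were high only on the second 2-week array.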

How the data were processed

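Rat Gene ST 1.0 arrays of 8 liver RNA samples in 4 groups of 2 were analysed. The authors deposited log2 values that, per the submitters' processing notes, come from RMA (robust multi-array averaging) run in Affymetrix Expression Console; the sources used here give no versions or filters. RMA corrects background, equalises arrays and summarises probes, and compresses changes near background. No detection calls or scan information were used here, and the number of arrays limits the precision.

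Of 29214 probe sets, 15310 had 1 gene symbol in the platform annotation, 323 had several and 13581 were unnamed here. The GRCr8 RefSeq gene table matched 15279 symbols. The probe set with the highest mean represented each gene, leaving 14506 genes. One limma model (3.58.1, R 4.3.3; lmFit and eBayes) of the 4 groups over all 8 arrays gave 6 pairwise contrasts and a moderated F test, with 4 residual and 4.27 prior degrees of freedom. Tests were two-sided, with Benjamini-Hochberg adjustment over all genes and calls at adjusted p under 0.05. The script was tested on simulated data.

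The members, gene lists and markers were chosen with earlier results of these data known. Array values are given for called members, for those with the highest F until 14 were reached, and for the highest F in each role; at most 10 other pathway genes are named, by F among those called. Alternatives were a replicate block, other scalings, filters, probe set choices, priors, a receptor-gene covariate, array weights, only the groups compared, and leaving out each array.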

Additional observations from a re-analysis of the deposited data

How the results depend on the processing

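With 2 arrays per group, counts of called members moved with the processing. None of the member differences followed through the alternatives turned round. Only members picked by the naming rule were followed, and only differences that were called or at least 1 log2 unit, which are the least likely to turn. Smaller differences, the remaining members, Hadhb among them, and the other pathway genes were not followed in this way. The median member difference for PH minus 4 weeks, 0.12, did turn, to -0.12 without the second PH array, and those near 0 for PH minus 12 weeks and 12 minus 4 weeks also changed sign when single arrays were left out. Leaving out 1 array at a time gave 0 to 0 members called for PH minus 12 weeks, 0 to 0 for PH minus 4 weeks, 1 to 4 for PH minus 2 weeks, 1 to 3 for 12 minus 2 weeks, 0 to 0 for 12 minus 4 weeks, 1 to 2 for 4 minus 2 weeks and 1 to 5 for the F test. Same-numbered arrays deviated together with correlations from 0.023 to 0.568 over the 6 pairs of groups. The labels do not say what a replicate number stands for. Whether same-numbered arrays share more than a number is therefore not known. With the replicate block the calls were 2 for PH minus 4 weeks (1 without it), 6 for 12 minus 2 weeks (3), 1 for 12 minus 4 weeks (0), 2 for 4 minus 2 weeks (1) and 6 for the F test (3). For PH minus 4 weeks, median centring, quantile normalization and testing all probe sets gave 0, and the receptor-gene covariate and array weights 2. For 12 minus 2 weeks, all probe sets, array weights and only the 2 groups gave 1. For 12 minus 4 weeks, a common 75th percentile, only genes at or above the median level, and the covariate gave 1. For 4 minus 2 weeks, a trended robust prior and array weights gave 2 and the covariate 3. The F test called 5 with the common 75th percentile, 7 with the covariate and 6 with array weights. The causes were not tested. Counts over all genes moved too: the 5 genes for PH minus 12 weeks became 41 with the block and 51 with the covariate, and the 44 for PH minus 4 weeks became 131 and 254. For PH minus 2 weeks the 313 genes became 500 with the block and 587 with array weights, for 12 minus 2 weeks the 323 became 515 with the block and 181 with array weights, for 12 minus 4 weeks the 16 became 30 with the block and 7 with only the 2 groups, for 4 minus 2 weeks the 65 became 128 with the block and 139 with the covariate, and for the F test the 259 became 485 with the block and 163 with all probe sets. Levels near the receptor genes, as for Acot1, Cpt1b and Abcd2 after PH, may lie at background, which no detection call settles here. The same holds for Aqp7 and Cyp4a8 after PH and for Abcd2, Acsm3 and Hao2 at 12 weeks.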
